A study of Danio rerio with 32 samples.

Results

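The fibrous matrix genes col1a2, col6a3, postnb, aspn and loxa were followed through cultures of adult zebrafish muscle cells, and are called the 5 genes here. They are 5 of the 8793 genes, and 8 of the 15502 probe sets, measured on the array. All probe sets whose annotated gene symbol or alias was that of a listed gene were taken. There were 2 each for col1a2, postnb and aspn, and 1 each for col6a3 and loxa. The genes were chosen by their measured levels at day 4 of culture, so the day 4 values are given as a description and carry no test. Their Entrez gene numbers are 336471 for col1a2, 556874 for col6a3, 337176 for postnb, 65228 for aspn and 404621 for loxa.

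The cells were mononuclear myogenic cells from the dorsal muscle of adult fish of the α-actin–RFP line, in which a promoter active in skeletal muscle drives a red reporter. Each preparation pooled several fish. The cells were grown close to confluence and then kept in differentiation medium, in which myotubes form, and a few fibroblasts remain in such cultures. RNA was taken at day 0 and on days 1, 4, 7, 10 and 14, which the labels count as days of differentiation, and was hybridized to Affymetrix Zebrafish Genome Arrays. The sources used here do not settle when day 0 RNA was taken relative to the change of medium. All groups carried the same transgene, with no treatment or mutant among them. Batch 2 held 20 arrays, with 3 arrays of days 0, 1 and 10 each, 4 of day 4, 5 of day 7 and 2 of day 14. Batch 1 held 12 arrays, 2 on each of these days, of which 11 were used. Arrays are named by day and replicate letter. The labels list growth and differentiation media from Promocell for both batches. The study describes replicates A and B as biological, without saying whether each array came from its own cell preparation, so the p-values reflect how far arrays of a day differ and no more.

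The matrix around muscle fibers is a fibrous scaffold made mainly by connective tissue cells, although myogenic cells also secrete parts of it. Fibrillar collagens such as type I form its fibers, type VI collagen forms a fine network next to the fiber's basement membrane, and small proteoglycans and matricellular proteins set how fibrils assemble and how cells bind them. Lysyl oxidases then crosslink collagen and elastin outside the cell. Of the 5 genes, col1a2 encodes a chain of type I collagen and col6a3 a chain of type VI collagen, and mutations of its human counterpart cause muscle disease. The gene postnb encodes a periostin, a secreted matricellular protein that binds collagen and is known from tendon and scar tissue in mammals. The gene aspn encodes asporin, a small leucine-rich proteoglycan that binds collagen, and loxa encodes a lysyl oxidase.

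A probe set is a group of short probes for a transcript. The values are MAS5 signals, a linear brightness per probe set, brought to a common distribution by quantile normalization. Signals of different probe sets cannot be set against each other. Log2 differences were taken after 32 was added to each signal, which understates the change of a dim probe set. By mean signal, 7 of the 8 probe sets stood between the 95.5 and 99.3 percentiles of all probe sets, and the dimmer aspn probe set stood at the 64.5 percentile. Where a gene has 2 probe sets they are named brighter and dimmer by their median signals, which were 18049 and 2721 for col1a2, 9051 and 3605 for postnb, and 2699 and 248 for aspn.

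A few features of the arrays bear on these genes. Day 0 array B of batch 1 was left out, with a scale factor of 915 and no correlation above 0.196 to the rest. Day 1 array B of batch 2 correlated best with a day 4 array (r = 0.952 with array 4A of batch 2, across probe sets), and its highest correlation with another day 1 array was 0.901. Results that rest on it are given with and without it. The labels grade 24 of the 31 arrays good and 7 poor, and 3 of the 4 day 4 arrays of batch 2 are among the poor ones. The mean brightness before scaling was 52.5 on day 4 array A and 122 on day 4 array B of batch 1. In that batch it was 21.4 on the day 0 array, 25.4 and 49.5 on day 1, and 122 to 161 after day 4. Each comparison of later with early days in batch 1 thus sets brighter arrays against dimmer ones. In batch 2 the brightness of the day 4 arrays lay inside the range of its other days, 60.7 to 282. Brightness was taken as the trimmed mean of the deposited signals, 500 on every array, divided by the scale factor. The labels give batch 2 a target of 1500, so its brightness cannot be set against that of batch 1. The part of brightness in the results was not tested.

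At day 4 the transcripts of col1a2, col6a3 and postnb were low in both batches, whereas those of aspn and loxa were not. The fitted level of all 5 probe sets of col1a2, col6a3 and postnb was lower at day 4 than the mean of the other days by 1.497 to 2.99 on the log2 scale over the 31 arrays (−2.99 for col6a3 to −1.497 for the brighter postnb probe set). In batch 1, aspn was instead highest at day 4, and loxa was lowest at days 0–1 in both batches. In batch 2, the lowest day of both aspn probe sets by mean log2 signal was day 0, with day 4 next. For the dimmer one, that day 0 mean holds array C, at 30.1. By median signal its lowest day was day 4, at 180 against 248 at day 0. The data thus go against the label "low at day 4" for aspn in batch 1 and for loxa. In batch 2 the brighter aspn probe set was not lowest at day 4 either, and for the dimmer one this depends on the measure. The 5 genes are therefore named here by their symbols. In bulk cultures, fewer cells that make a transcript and less transcript per cell cannot be told apart.

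**Figure D1:**
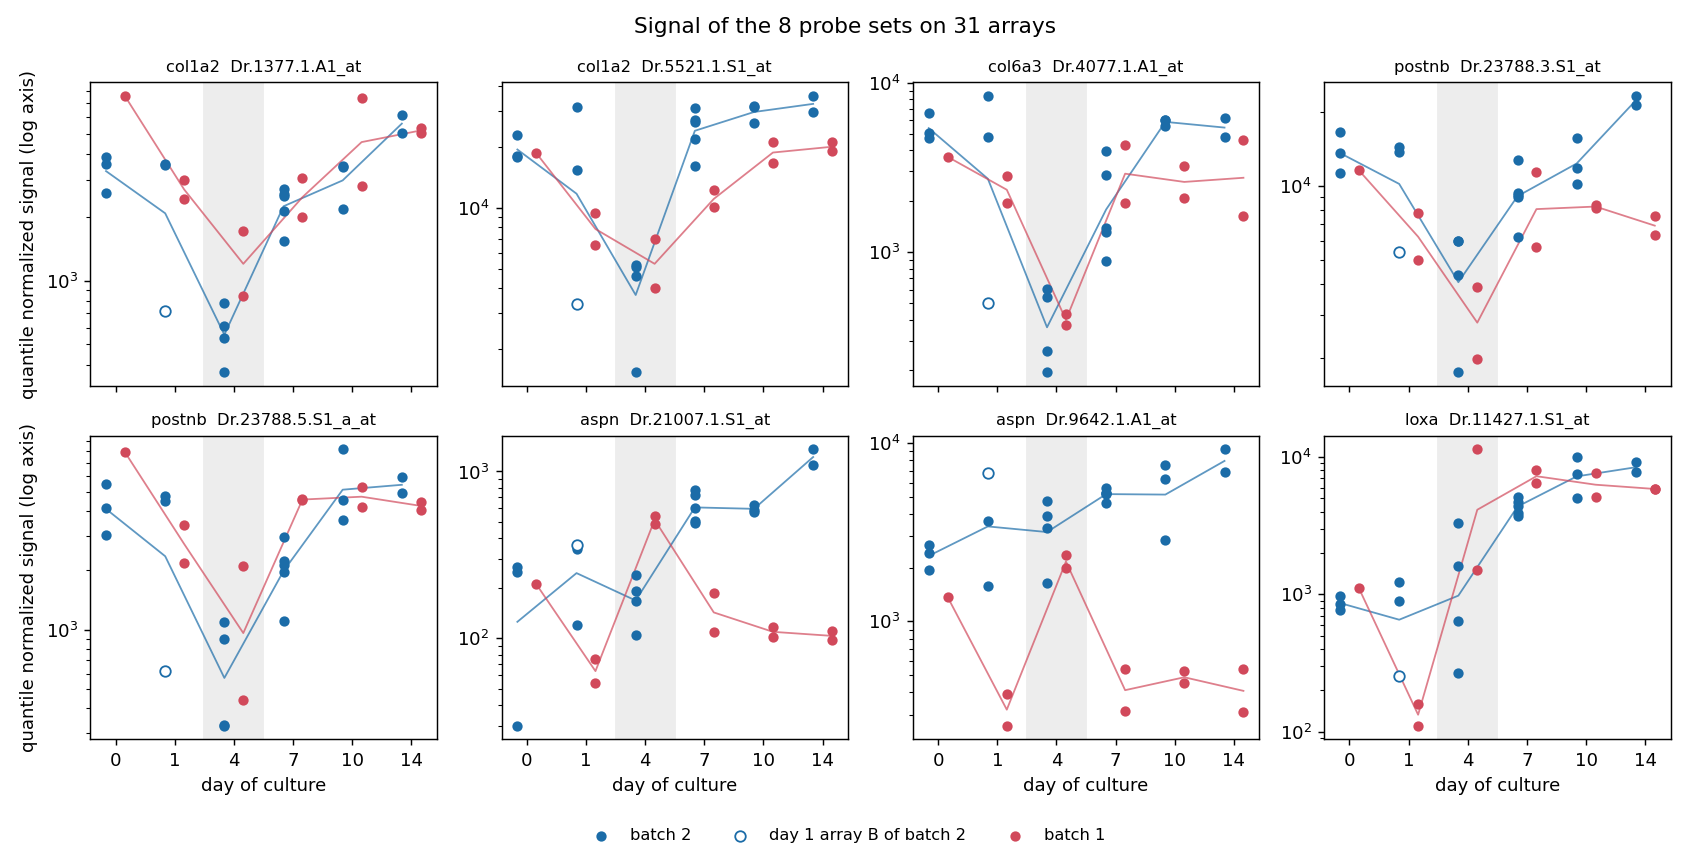
Quantile normalized signal (log axis) of each of the 8 probe sets against day of culture. Points are arrays of batch 2 (blue) and batch 1 (red), lines join the day means of the log signals, the open circle is day 1 array B of batch 2 and the grey band marks day 4. The day 4 points of col6a3 lie between 195 and 606, while those of aspn in batch 1 lie above all other points of that batch.

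The collagen VI gene col6a3 had the deepest dip. In batch 2 its signal was 4694, 5047 and 6639 at day 0, 8338, 501 and 4772 on day 1, 259, 546, 606 and 195 at day 4, 2853, 882, 3969, 1384 and 1319.75 on day 7, 6060.1, 5998 and 5581 on day 10, and 6219 and 4755 at day 14. In batch 1 it was 3654 at day 0, 2799 and 1947 on day 1, 369 and 429.9 at day 4, 4304 and 1961 on day 7, 2088 and 3229.7 on day 10, and 4623 and 1634 at day 14. The 6 day 4 arrays lay below every other array except day 1 array B of batch 2. The fitted day 4 difference was −2.99 over the 31 arrays, −3.13 in batch 2 and −2.73 in batch 1. Without day 1 array B it was −3.86 in batch 2. With arrays graded good alone, of which day 4 of batch 2 holds 1, it was −3.42 over both batches.

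The type I collagen gene col1a2 dipped on both of its probe sets. The dimmer probe set gave 2626, 3599.5 and 3863 at day 0 in batch 2, 3583, 723 and 3534 on day 1, 368, 609.8, 785 and 538 at day 4, 1546, 2584, 2524, 2721 and 2142 on day 7, 2196.5, 3516 and 3487 on day 10, and 5054 and 6152 at day 14. In batch 1 the same probe set gave 7529 at day 0, 2999 and 2459 on day 1, 845 and 1716 at day 4, 3086 and 2018 on day 7, 7353 and 2823 on day 10, and 5017 and 5339 at day 14. Within each batch, no array of another day reached into the day 4 range other than day 1 array B of batch 2. The day 4 difference was −2.10 in batch 2 and −1.75 in batch 1. The brighter col1a2 probe set ranged from 1533 to 5237 at day 4 of batch 2 and was 3996 and 6972 at day 4 of batch 1. Its day 4 difference was −2.40 in batch 2 and −1.44 in batch 1. Within the day 4 range of its own batch lay day 1 array B of batch 2 at 3334 and day 1 array B of batch 1 at 6542.

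The periostin gene postnb followed the same course. The brighter probe set gave 11261, 16489 and 13564 at day 0 in batch 2, 14395, 5382.5 and 13692 on day 1, 1758, 4371, 5975 and 5998 at day 4, 9216, 12754.5, 9051, 9372 and 6238 on day 7, 10148, 15637 and 11847 on day 10, and 21383 and 23151 at day 14. In batch 1 it gave 11568.5 at day 0, 7742 and 5011 on day 1, 1994 and 3910.0 at day 4, 11452 and 5674 on day 7, 8377 and 8136 on day 10, and 7529 and 6338 at day 14. Day 4 was the lowest day in both batches, and in batch 2 only day 1 array B overlapped it. This overlap depends on the normalization. On the deposited signals of batch 2, before quantile normalization, day 7 arrays A and B (5294 and 5157) lay within the day 4 range, 1948 to 5299. Day 1 array B lay above that range, at 5482. The day 4 difference was −1.57 in batch 2 and −1.51 in batch 1. The dimmer postnb probe set ranged from 328 to 1092 at day 4 of batch 2 and was 441 and 2105 at day 4 of batch 1. Its day 4 difference was −2.32 in batch 2 and −2.19 in batch 1.

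Of all 15502 probe sets, 2.13% were lower at day 4 by at least 1 on the log2 scale in the fit to the 31 arrays, and this share was 5.41% among the 776 probe sets from the 95th percentile of mean signal upward. Over all probe sets the share was 2.05% in batch 2 and 2.75% in batch 1, and among the 776 brightest it was 6.7% in batch 2 and 4.77% in batch 1. Of the 8 probe sets, 5 passed that size over the 31 arrays. Since the genes were chosen for these values, the count is only a description. The median day 4 difference of all probe sets was 0.0059.

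The proteoglycan gene aspn showed a different course in each batch. In batch 2, the dimmer probe set gave 266, 248 and 30.1 at day 0, 344, 361 and 120.3 on day 1, 192, 104, 240.3 and 168 at day 4, 503, 605, 777, 723 and 491 on day 7, 590.0, 571 and 631 on day 10, and 1099 and 1354 at day 14. In batch 1 it gave 211 at day 0, 75.0 and 54.1 on day 1, 487 and 541 at day 4, 186 and 109.8 on day 7, 117 and 102 on day 10, and 97.2 and 110.2 at day 14. In batch 2 the highest values were those of day 14, and the day 4 values lay within the range of days 0–1. In batch 1 both day 4 arrays exceeded the 9 other arrays. The day 4 difference was −1.55 in batch 2 and 1.85 in batch 1. The brighter aspn probe set also parted by batch, with 1643 to 4715 at day 4 of batch 2 among 1590.15 to 9216 on the other days, and with 1997 and 2349 at day 4 of batch 1 above 261 to 1370.1 on the other days. Its day 4 difference was −0.66 in batch 2 and 2.00 in batch 1. Over the 31 arrays the dimmer and brighter aspn probe sets differed by 0.066 and 0.60 at day 4, and by 1.04 and 1.30 over the arrays graded good, of which day 4 of batch 2 holds 1.

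The lysyl oxidase gene loxa was low at days 0–1 and high from day 7. In batch 2 its signal was 854, 774 and 979 at day 0, 1228, 254 and 896 on day 1, 269, 638, 1610.0 and 3338 at day 4, 4443, 3751, 4744, 5109 and 3926 on day 7, 5071, 7529 and 9951 on day 10, and 9216 and 7742 at day 14. In batch 1 it was 1108 at day 0, 159 and 111 on day 1, 1505 and 11379.9 at day 4, 6530.3 and 8083 on day 7, 7689.5 and 5161 on day 10, and 5844 and 5885 at day 14. In both batches every array of days 7–14 exceeded every array of days 0–1. The day 4 arrays were spread widely and reached from the early range to, in batch 1, the highest value of all. The day 4 difference was −0.99 in batch 2 and 0.93 in batch 1.

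The tests that follow ask whether the genes had the same level before and after day 4, and they were fitted with limma, a linear model with a spread moderated across probe sets, with p-values adjusted by Benjamini-Hochberg over all 15502 probe sets. The hybridization run was a covariate over the 31 arrays and in batch 2. Day 7 arrays C, D and E and day 14 array B of batch 2, all graded good, made up a run of their own. Of the day 7 arrays of batch 2, only A and B, both graded poor, shared a run with arrays of days 0–1. The differences of day 7 from days 0–1 in batch 2 thus depend on those poor arrays and on the fitted run effects. The day 4 arrays, whose values chose the genes, enter these tests through the run effects and the spread. Each test was therefore also fitted on the 25 arrays of the other days, an addition made after the data were seen.

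Days 10–14 were compared with days 0–1, with 9 arrays on each side. The gene loxa was 3.25 ± 0.49 (SE) higher on the log2 scale at days 10–14, a 9.54-fold difference, with an adjusted p of 7.9e-06 by limma. It was higher by 2.78 in batch 2 (adjusted p = 0.00029 by limma) and by 3.82 in batch 1 (adjusted p = 0.0032 by limma). Without day 1 array B of batch 2 it was higher by 3.26, where 22.4% of all probe sets were called higher, and without the day 4 arrays by 3.51 (adjusted p = 1.2e-07 by limma), where 22.3% were. Of the 8 probe sets, loxa was the only one called over the 31 arrays, while 3 were called higher without the day 4 arrays, those of loxa, the dimmer aspn and the brighter col1a2. Over all probe sets, 21.6% were called higher and 16.9% lower. Higher values of loxa were also called under every alternative run for this comparison, with differences from 2.65 to 3.82.

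**Figure D2:**
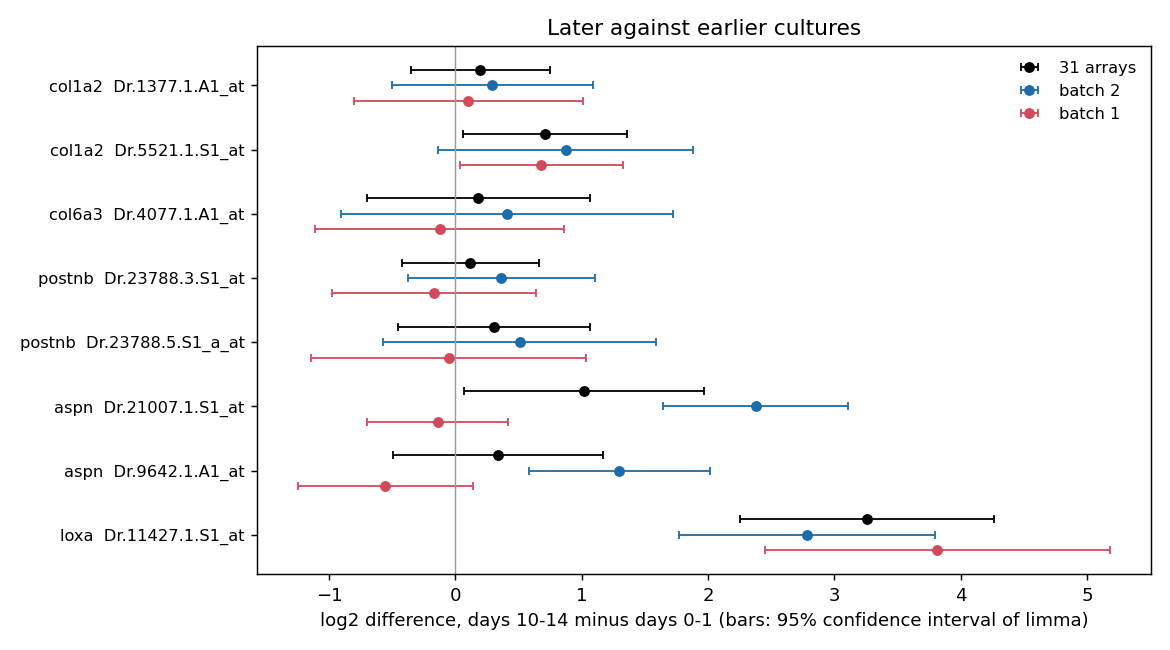
Log2 difference between days 10–14 and days 0–1 for each of the 8 probe sets, fitted by limma over the 31 arrays (black), in batch 2 (blue) and in batch 1 (red). Bars are 95% confidence intervals. The 3 estimates of loxa lie at 3.25, 2.78 and 3.82, and those of aspn lie on opposite sides of 0 in the 2 batches.

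The transcripts of col1a2, col6a3 and postnb did not pass the test at days 10–14 over the 31 arrays. Their differences from days 0–1 were 0.20 and 0.71 for col1a2, 0.18 for col6a3, and 0.12 and 0.31 for postnb. The 95% confidence intervals were −0.35 to 0.75 and 0.06 to 1.36 for col1a2, −0.70 to 1.06 for col6a3, and −0.42 to 0.66 and −0.45 to 1.07 for postnb. The intervals do not show that the levels were equal. The brighter col1a2 probe set had an adjusted p of 0.078 by limma. It passed without the day 4 arrays (0.67, adjusted p = 0.037 by limma), with batch alone as covariate (0.92, adjusted p = 0.018), and when day 1 array A (0.89, adjusted p = 0.00744) or day 4 array A of batch 2 (0.76, adjusted p = 0.018) was left out. Without the day 4 arrays the differences of the dimmer col1a2 probe set and col6a3 were 0.11 and −0.016, and those of postnb were 0.086 and 0.27, none of which passed.

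For aspn the late difference was called in batch 2 and not in batch 1. The dimmer probe set differed by 1.02 ± 0.46 (SE) over the 31 arrays (adjusted p = 0.083 by limma), by 2.38 ± 0.35 in batch 2 (adjusted p = 5.6e-05) and by −0.14 in batch 1 (adjusted p = 0.70). The pooled difference passed when any 1 of day 0 array A, day 4 array A and day 4 array B of batch 1 was left out (1.29, 1.099 and 1.11, adjusted p = 0.036, 0.0497 and 0.043 by limma), with batch alone as covariate (1.17, adjusted p = 0.032) and without all day 4 arrays (1.33, adjusted p = 0.0077). The brighter probe set differed by 0.33 over the 31 arrays, by 1.30 in batch 2 (adjusted p = 0.0080 by limma) and by −0.56 in batch 1 (adjusted p = 0.20). In batch 2, 15% of all probe sets were called higher and 13.7% lower, and 3 of the 8 were called higher, both of aspn and loxa. In batch 1, 16.2% were called higher and 13.4% lower, and loxa was called. Without the day 4 arrays the same probe sets were called in each batch, where 21.5% of all were called higher in batch 2 and 17.4% in batch 1.

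The difference between the batches was itself tested by an interaction term, which called 11.6% of all probe sets in either direction. The late difference of aspn was larger in batch 2 than in batch 1 by 2.52 ± 0.48 (SE, adjusted p = 0.0025 by limma) on the dimmer probe set and by 1.85 ± 0.50 (adjusted p = 0.019) on the brighter one. Day 0 of batch 1 is a single array, with signals of 211 on the dimmer and 1370.1 on the brighter aspn probe set, while its day 1 arrays had 75.0 and 54.1 on the dimmer and 393 and 261 on the brighter one. With day 1 alone as the early day of both batches, neither probe set passed (1.49 and 0.59, adjusted p = 0.084 and 0.54 by limma), so the call was made only with day 0 among the early days. The values are the same with and without the single array, and this setting also takes the day 0 arrays of batch 2 out of the difference. Array B had the highest aspn signals on day 1 of batch 2, 361 on the dimmer and 6789 on the brighter probe set. The setting with day 1 alone was not fitted without that array. The brighter one also did not pass without day 1 array C of batch 2 (1.28, adjusted p = 0.062). Without the day 4 arrays both passed (2.73 and 1.98, adjusted p = 0.00072 and 0.012 by limma), where 18.8% of all probe sets were called. The other 6 probe sets did not pass this test, with differences of −1.03 for loxa and 0.19 to 0.56 for col1a2, col6a3 and postnb.

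Day 7 was compared with days 0–1 to see where the genes stood right after day 4. Over the 31 arrays loxa was 2.76 ± 0.59 (SE) higher at day 7 (adjusted p = 0.00072 by limma), where 19.7% of all probe sets were called higher and 15.3% lower. It was 1.77 higher in batch 2 (adjusted p = 0.024 by limma, 20.1% of all called higher) and 4.07 higher in batch 1 (adjusted p = 0.0075 by limma, 13.7% called higher). In batch 2 the dimmer aspn probe set was 1.96 higher at day 7 (adjusted p = 0.0017 by limma), against 0.20 in batch 1 (adjusted p = 0.64). The brighter one differed by 0.90 in batch 2 (adjusted p = 0.094 by limma) and by −0.66 in batch 1 (adjusted p = 0.21), and passed in batch 2 without the day 4 arrays (1.07, adjusted p = 0.045, 25.6% of all called higher). The dimmer col1a2 probe set differed by −0.81 at day 7 (adjusted p = 0.053 by limma), and without day 1 array B of batch 2 it was called lower (−0.87, adjusted p = 0.017 by limma, 15.6% of all called lower). The brighter col1a2 probe set differed in the other direction, by 0.20 over the 31 arrays (adjusted p = 0.72 by limma), by 0.12 without that array, by 0.58 in batch 2 and by −0.13 in batch 1, and did not pass. Before quantile normalization, its deposited signals in batch 2 were 7311 to 12842 on day 7. At days 0–1 they were 10252 to 16763 apart from day 1 array B, at 3602. The direction in batch 2 is therefore given for the normalized signals only. Without the day 4 arrays the 2 probe sets differed by −0.89 for the dimmer, which passed (adjusted p = 0.029 by limma), and by 0.21 for the brighter (adjusted p = 0.61), where 20.5% of all were called higher and 15.6% lower. Under that setting loxa was 3.11 higher (adjusted p = 1.0e-05 by limma) and the dimmer aspn probe set 1.18 higher (adjusted p = 0.046). In batch 2 without day 1 array B, 17.8% of all probe sets were called lower, among them the dimmer col1a2 probe set (−0.92, adjusted p = 0.012 by limma) and col6a3 (−1.54 ± 0.49, adjusted p = 0.019 by limma). With the array the col6a3 difference in batch 2 was −1.23 (adjusted p = 0.21 by limma), and with it but without the day 4 arrays −1.70 (adjusted p = 0.0505). In batch 1 the day 7 difference of col6a3 was −0.0070 with a 95% confidence interval of −1.18 to 1.16.

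From day 7 to days 10–14 none of the 8 probe sets passed over the 31 arrays, where limma called 4 of 15502 probe sets higher (0.0258%) and 0 lower, beside 775 higher and 826 lower at an unadjusted p under 0.05. None passed without the day 4 arrays either, where 0.0129% were called higher. The dimmer col1a2 probe set differed by 1.00 ± 0.29 (adjusted p = 0.30 by limma). In batch 2 the differences of the dimmer col1a2 probe set, col6a3 and the dimmer postnb probe set were 1.02, 1.64 and 1.34, with adjusted p-values of 0.10, 0.11 and 0.12 by limma, where 2.37% of all probe sets were called higher. Without day 1 array B, which enters these differences only through the estimate of the spread, these 3 probe sets passed in batch 2 with adjusted p-values of 0.020, 0.028 and 0.043, where 2.83% of all probe sets were called higher. Without the day 4 arrays but with that array, the dimmer col1a2 probe set, col6a3 and loxa passed in batch 2 (1.02, 1.65 and 0.89, adjusted p = 0.043, 0.043 and 0.041 by limma), where 8.86% of all probe sets were called higher. In batch 1 the differences of the dimmer col1a2 probe set, col6a3 and the dimmer postnb probe set were 0.95, −0.12 and −0.029 and did not pass.

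None of the 8 probe sets passed the comparison of day 1 with day 0 over the 31 arrays, in either batch, or over the 25 arrays without day 4. Over the 31 arrays limma called 0 of 15502 probe sets (0% higher and 0% lower), beside 388 higher and 466 lower at an unadjusted p under 0.05. In batch 1 without the day 4 arrays, loxa was called lower on day 1 than at the single day 0 array (−2.79, adjusted p = 0.026 by limma, 3.1% of all called lower), and with them its adjusted p was 0.14. Over the 31 arrays the differences of the 8 probe sets ran from −1.33 for loxa to 0.11 for the dimmer aspn probe set. Without day 1 array B of batch 2 the difference of col6a3 was −0.13 in place of −0.88, and that of the dimmer postnb probe set was −0.51 in place of −1.01.

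The courses of col1a2, col6a3 and postnb resembled each other across arrays. After each hybridization run was centered, the log2 signals of their 5 probe sets correlated pairwise with r between 0.84 and 0.92 over the 31 arrays. The 2 aspn probe sets correlated with these 5 with r between −0.22 and 0.19 over the 31 arrays, between 0.073 and 0.42 in batch 2 and between −0.72 and −0.35 in batch 1. For loxa the range was 0.13 to 0.43. Arrays of a day share their day of culture and those of a run their hybridization, so these values describe the arrays and are not tests.

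By the same measure, the 10 genes most like the mean of the 5 genes among 8788 others were timp2a (r = 0.898), mmp2 (0.888), sparc (0.885), lrp1aa (0.870), zgc:162816 (0.858), anxa1a (0.853), icn (0.844), col1a1a (0.844), loxl2b (0.841) and si:ch211-133n4.4 (0.8285), over 31 arrays. The gene mmp2 encodes a gelatinase that cuts denatured collagen, timp2a an inhibitor of such proteases, sparc a collagen-binding matricellular protein, col1a1a another chain of type I collagen and loxl2b another enzyme of the lysyl oxidase family. Their day 4 differences were −2.15 for mmp2, −1.19 for timp2a, −1.12 for sparc, −1.05 for loxl2b and −0.93 for col1a1a. The rest of the 10 had −2.50 for anxa1a, −1.79 for lrp1aa, −1.19 for icn, −1.06 for zgc:162816 and −1.03 for si:ch211-133n4.4. Of these, icn also stands in the epithelial marker list counted below, so the likeness is not confined to matrix genes. For col1a2, col6a3 and postnb alone, a selection made after their values were seen, timp2a was again closest (r = 0.932). Next came anxa1a (0.874), pmp22a (0.870) and appb (0.862), and the keratin gene krt4 (0.830), also of the epithelial list, was among the 10 closest. The genes closest to loxa were tmem45a (r = 0.936), pgrmc2 (0.936) and pcolce2b (0.922), of which pcolce2b encodes an enhancer of collagen processing. The genes closest to aspn reached r = 0.756 (cyb5r1).

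The other matrix genes were counted by lists that leave out the 5 genes. The counts at days 10–14 stand beside 21.6% of all probe sets called higher and 16.9% called lower, and the day 4 counts beside 2.13% lower by at least 1. Of the 5 other fibrillar collagens measured, 2 rose at days 10–14 and 0 fell. These were col11a1a (2.57 ± 0.50, SE, adjusted p = 0.00018 by limma) and col5a2a (1.28), both chains of minor fibrillar collagens, while col1a1a differed by 0.60 (adjusted p = 0.053 by limma) and col2a1a, the cartilage collagen, by 0.77 (adjusted p = 0.32). Of the 8 other interstitial collagens 0 rose and 2 fell, col14a1a (−1.30) and col10a1b (−1.13). In batch 2 alone these 2 did not pass (−0.86 and −0.91, adjusted p = 0.078 and 0.12 by limma). The difference of col11a1a was 3.77 in batch 2 and 1.15 in batch 1. The list medians at days 10–14 were 0.77 and −0.037, beside 0.072 over all probe sets. At day 4, 1 of the 5 fibrillar and 1 of the 8 other collagens were lower by at least 1 over the 31 arrays. Their median day 4 differences were −0.42 and −0.43, with negative values for 4 of 5 and 7 of 8.

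Enzymes that modify or crosslink collagen rose at days 10–14 beside loxa. All 11 others measured were called higher, beside 21.6% of all probe sets, with a median of 1.88. Among them were pcolce2b (3.49), fkbp10b (2.86), a chaperone of procollagen, p4ha2 (2.01), a prolyl hydroxylase, and crtap (2.26), a part of the collagen prolyl 3-hydroxylation complex. At day 4 their median difference was −0.048, and 3 of 11 were lower by at least 1. Of these 11, 9 were called higher in batch 2, beside 15% of all probe sets, and 8 in batch 1, beside 16.2%. Their day 4 differences were negative for 10 of 11 in batch 2 and for 4 of 11 in batch 1.

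Among 3 other small leucine-rich proteoglycans, dcn (decorin) rose by 1.80, bgnb (biglycan) fell by 1.097 and kera (keratocan) differed by 0.45 (adjusted p = 0.17 by limma). Their day 4 differences were all negative, −0.84, −0.89 and −0.18. Of 19 matricellular and elastic fiber genes, 7 rose and 4 fell at days 10–14 over the 31 arrays, with a median of 0.29. The median was 0.65 in batch 2 and −0.31 in batch 1, so its direction differed between the batches. The fibronectin genes fn1b (3.23) and fn1a (2.39) and the fibulin gene fbln1 (1.95) rose, and efemp2b (−1.59), another fibulin, fell. At day 4, 7 of these 19 were lower by at least 1 over the 31 arrays. The difference was negative for 17 of 19 over the 31 arrays and in batch 2, and for 11 of 19 in batch 1. The list was made with such values of these data known, so its day 4 count is not independent evidence.

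**Figure D3:**
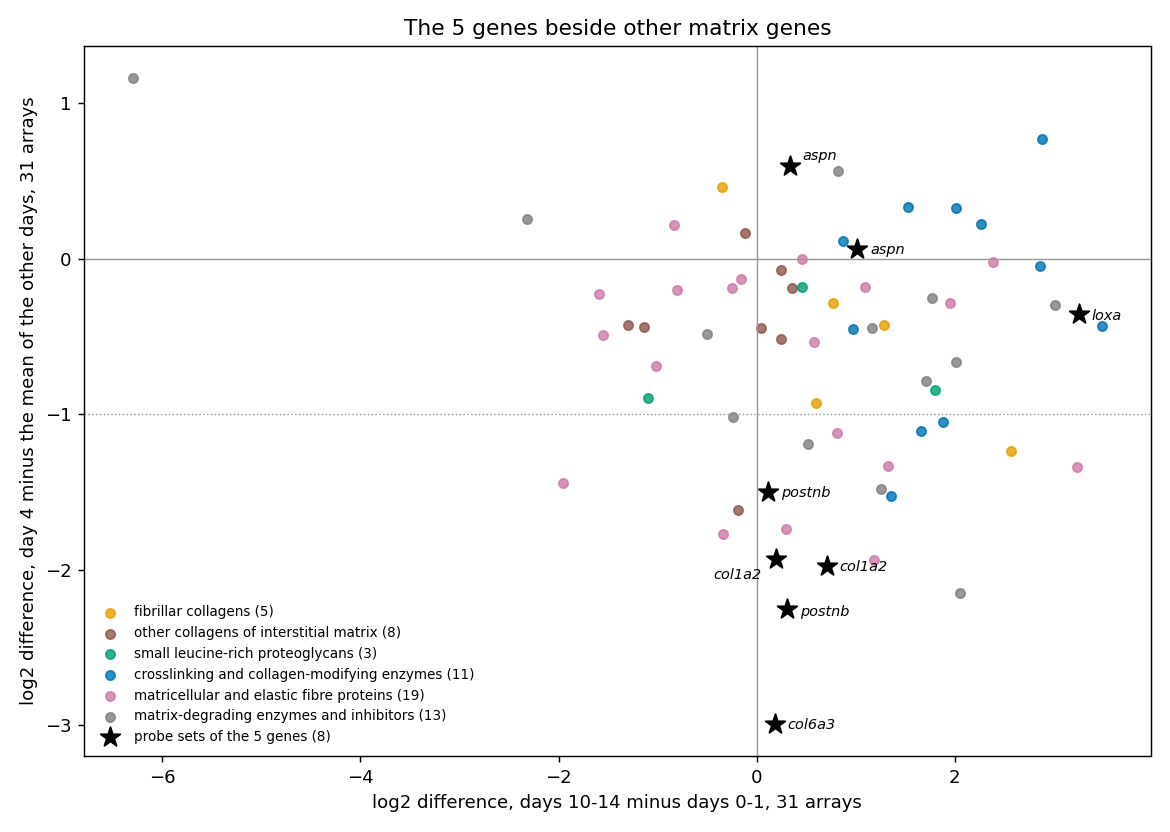
Log2 difference at day 4 from the mean of the other days (vertical) against the log2 difference between days 10–14 and days 0–1 (horizontal), fitted over the 31 arrays. Each point is a gene of a matrix list (number of genes in the legend), black stars are the 8 probe sets of the 5 genes and the dotted line marks −1. The stars of col1a2, col6a3 and postnb lie between −2.99 and −1.497 at day 4, and loxa lies at 3.25 on the horizontal axis.

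Of 13 matrix-degrading enzymes and inhibitors 9 rose and 2 fell at days 10–14, beside 21.6% of all probe sets called higher and 16.9% lower. The collagenase mmp13a (−6.30) and the gelatinase mmp9 (−2.32), both also among the leukocyte markers, fell. The cysteine protease ctsk (3.01), the cathepsin ctsla (1.77) and the membrane protease mmp14b (2.02) rose. In the TGF-beta pathway, which induces collagen, periostin and lysyl oxidase genes in many mammalian cells, 2 of 10 rose and 3 fell, with a median of −0.13. The share that rose was close to that of all probe sets, 21.6%. The repressor tgif1 (−1.56), the inhibitor smad7 (−1.08) and skia (−0.83) fell, and smad3b (0.84) rose. In batch 2 alone smad7 did not pass (−0.25, adjusted p = 0.57 by limma), against −1.84 in batch 1, and skia passed in neither batch alone. At day 4 none of the 10 was lower by at least 1. The difference was negative for 9 of 10 over the 31 arrays and in batch 2, and for 5 of 10 in batch 1. Of 6 matrix receptors 2 rose and 2 fell, with itgb5 (2.04) and sdc2 (1.12) higher and sdc4 (−1.14) and itga5 (−0.88) lower.

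**Figure D4:**
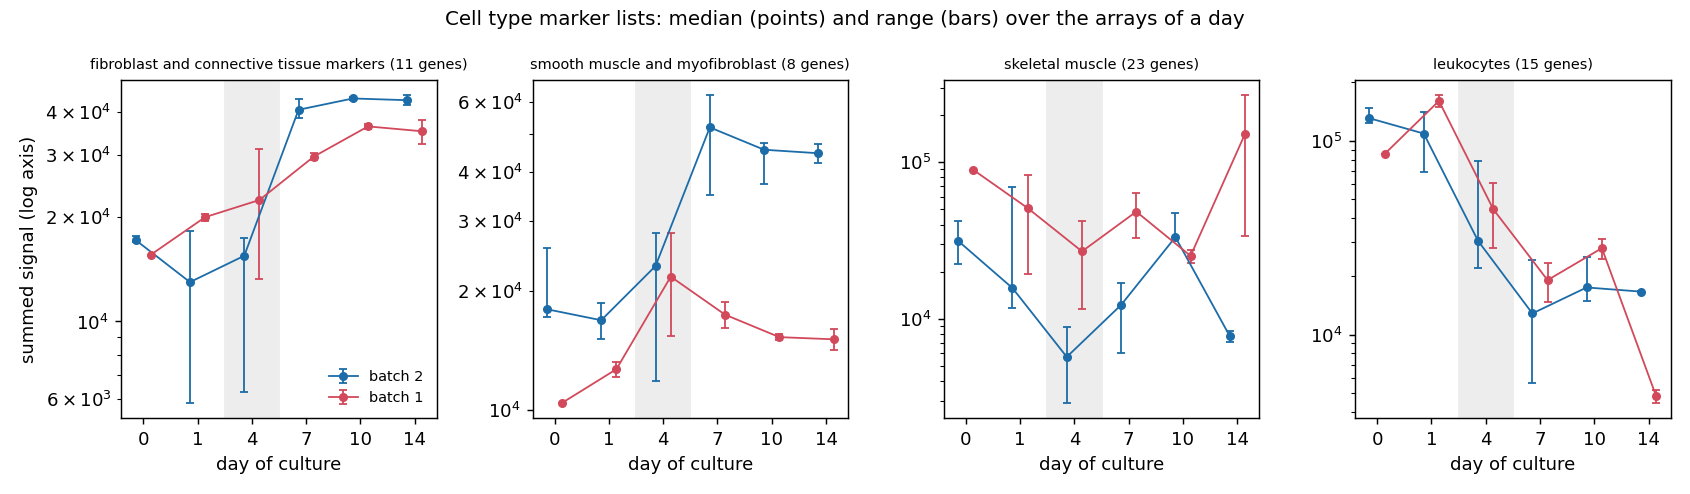
Summed signal (log axis) over the measured genes of 4 cell type marker lists, by day of culture, in batch 2 (blue) and batch 1 (red). Points are medians and bars the range over the arrays of a day, and the grey band marks day 4. The skeletal muscle sum of batch 2 lies between 2902 and 8862 at day 4.

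Cell type markers moved over the same days, and their part in the day 4 values was not tested. The summed signal of 11 measured fibroblast markers of 21 listed was 6257 to 17366 on the day 4 arrays of batch 2, against 5841 to 18128 at days 0–1 and 38391 to 44597 at days 7–14. In batch 1 it was 13272 and 31343 at day 4, against 15540.2 to 20379 at days 0–1 and 28994 to 37894 at days 7–14. The lowest sums of the 31 arrays were those of day 1 array B (5841) and day 4 array A (6257) of batch 2. The fibroblast sums of the other day 4 arrays of batch 2 lay between 14018 and 17366, among those of its day 0, 16848 to 17532, and day 1. At days 10–14, 6 of the 11 rose and 1 fell, prrx1a (1.92), prrx1b (1.48) and fbln1 (1.95) being higher and vim (vimentin, −2.83) lower. Of these markers, dcn and fbln1 also stand in the matrix lists. Day 4 differences of the 11 were negative for 7 over the 31 arrays, for 10 in batch 2 and for 4 in batch 1. Lower by at least 1 were 0 over the 31 arrays, 3 in batch 2 and 0 in batch 1, beside 2.13%, 2.05% and 2.75% of all probe sets.

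Most skeletal muscle markers had negative day 4 differences as well. The sum over 23 measured of 32 listed was 2902 to 8862 at day 4 in batch 2, against 6083 to 68962 on the other days, and 11569 and 42316 at day 4 in batch 1, against 19263 to 268425 on the other days. All 23 had negative day 4 differences over the 31 arrays, 9 of them lower by at least 1, beside 2.13% of all probe sets. In batch 2, 22 of 23 were negative, and in batch 1 it was 17 of 23, with myog (0.90), acta1a (0.66) and actc1a (0.63) among the positive ones. At days 10–14, 8 of 23 rose and 6 fell, with acta1a (3.25), desma (2.79) and myog (1.69) higher and pvalb3 (−3.86) lower. Smooth muscle and myofibroblast markers, 8 measured of 16 listed, held 3 that rose, tagln (2.97), myl9b (1.38) and cnn2 (0.69), and 0 that fell.

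Markers of blood and vessel cells declined. Of 15 leukocyte markers measured, 0 rose and 13 fell at days 10–14, among them ptprc (−3.69), mmp13a (−6.30), runx3 (−3.09) and cxcr4b (−3.88). Their sum was 22040.4 to 78681 at day 4 of batch 2, against 69373 to 147037 at its days 0–1, and 60836 and 27807 at day 4 of batch 1, against 85476 to 171930.0 at its days 0–1. Of 6 endothelial markers 4 fell, kdrl (−2.85), fli1 (−2.07), tek (−1.72) and fli1rs (−1.30), and of 6 erythrocyte markers 3 fell, hbaa1 (−4.60), hbba2 (−2.24) and slc4a1a (−1.96). Of 17 epithelial markers 1 rose and 5 fell, with krt15 (−4.51), epcam (−3.94) and krt91 (−2.33) lower and a list median of 0.078. In batch 1, 3 rose and 1 fell, with a median of 0.27, beside 16.2% of all probe sets called higher and 13.4% lower. In batch 2, 1 rose and 5 fell, with a median of −0.18, beside 15% and 13.7%. All 17 had negative day 4 differences over the 31 arrays, 6 of them lower by at least 1, beside 2.13% of all probe sets. It was 15 of 17 in batch 2 and 13 of 17 in batch 1. Their sum was 21525 to 36986 at day 4 of batch 2, against 22417 on day 1 array B and 50440 to 88608 on its other arrays. In batch 1 it was 50091 and 71857 at day 4, against 54625 to 116293 on the other days. Of 14 markers of tendon, cartilage, bone and scale, 2 rose and 3 fell (alpl by 0.67), with runx2a (1.41) and xirp2a (1.05) higher and sox9b (−1.71) and egr1 (−1.60) lower. None of these 5 was called in both batches fitted alone, though each had the same direction in both. No marker signal was 0 on any of the 31 arrays, but many markers were dim. The median signal was under 100 for 5 of 6 erythrocyte and 8 of 14 tendon, cartilage, bone and scale markers. It was also under 100 for 6 of 17 epithelial and 2 of 6 endothelial markers.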

How the data were processed

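The members and gene lists were chosen with earlier results of these data known. The authors deposited 1 table of MAS5 signal intensities, a linear brightness per probe set scaled to a common trimmed mean, for 32 arrays. Their MAS5 version is not given in the sources here, and the study's methods name RMA, which was not applied here. Of 15617 probe sets, 115 controls were dropped and 15502 kept. Quantile normalization set every array to the average quantiles of 10 batch 1 arrays, and log2(signal + 32) was fitted with limma 3.58.1 in R 4.3.3 over 31 arrays, with 6 day groups and 5 hybridization runs as a covariate. Day 0 array B of batch 1 was left out. Each batch was also fitted alone, each fit was repeated without the day 4 arrays, and an interaction term tested batches. P-values were adjusted by Benjamini-Hochberg over all probe sets with a threshold of 0.05. Of the probe sets, 10795 had 1 symbol (10711 updated through Entrez numbers), 135 several and 4572 none. In the lists a gene is its probe set of highest mean log2 signal. Named list genes were those with the lowest p in each list or chosen after their values were seen. Scripts were tested on simulated data. Other scaling, offsets, filters, covariates and array sets were tried. The number of arrays limits the precision. Promoter sequences were not analysed here.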

Additional observations from a re-analysis of the deposited data

Results flagged for a closer look

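On the brighter col1a2 probe set, day 4 array A of batch 2 stood apart from the other day 4 arrays of that batch, with a signal of 1533. On the log2 scale of the normalized signals, its gap to the nearest of them was 0.890 of the whole range of the 4 arrays. The share is smaller on the linear signals, normalized or deposited, so the flag depends on the scale. This was the only such array among 16 groups tested, and chance alone gives about 1 in 20 groups. The groups share arrays and so are not independent. On the deposited signals array A had 1696, and arrays B, C and D had 3839, 4299 and 3472. Array A is the only day 4 array of batch 2 graded good. It also had the second lowest fibroblast marker sum of the 31 arrays. The part of its grade and of this sum in the result was not tested.

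The difference between days 10–14 and days 0–1 was larger in batch 2 than in batch 1 by 2.52 for the dimmer and by 1.85 for the brighter aspn probe set, by the interaction test in limma (adjusted p = 0.0025 and 0.019). With day 1 alone as the early day of both batches they were 1.49 and 0.59 and did not pass. Batch and hybridization run cannot be told apart between the batches.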

How the results depend on the processing

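The higher loxa at days 10–14 kept its direction and its call under every alternative run. With batch 1 alone, the differences between days 10–14 and days 0–1 turned to −0.13 for col6a3, −0.17 and −0.055 for the brighter and dimmer postnb probe sets, and −0.14 and −0.56 for the dimmer and brighter aspn probe sets. With the 10 arrays of batch 1 that the study used they were −0.11 and −0.023 for postnb, and −0.18 and −0.74 for aspn. With the deposited scaling alone the brighter postnb probe set turned to −0.21. None of these values passed the test. The difference between batches turned to −0.16, −0.17 and −0.013 for the dimmer and brighter col1a2 probe sets and col6a3 with the deposited scaling alone. Leaving out 1 array gave −0.15 to 0.53 for the dimmer and −0.030 to 0.58 for the brighter col1a2 probe set, with −0.00035 and −0.030 without day 1 array B of batch 2 and −0.15 without day 10 array B of batch 1. With day 1 alone as the early day of both batches the differences were −0.21 and −0.068 for col1a2 and 1.49 and 0.59 for aspn, with or without the single day 0 array of batch 1. Without day 1 array C of batch 2 the brighter aspn probe set was 1.28, and none of these values passed. Without the day 4 arrays the difference between batches was −0.036 for the dimmer col1a2 probe set, and the late difference of col6a3 was −0.016 over both batches and −0.052 in batch 2.

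Of the 8 probe sets, 1 was called higher at days 10–14 than at days 0–1. It was 3 with batch 2 alone, with batch alone as covariate, with batch 2 without its day 1 array B, and without the day 4 arrays over both batches or in batch 2, and 1 to 2 when 1 array was left out. The count higher at day 7 was 1. It was 2 under the first 3 of those settings and without the day 4 arrays, and 3 in batch 2 without them. The count lower at day 7 was 0. It was 1 with the deposited scaling, an offset of 100, without probe sets of median signal under 100 or without the day 4 arrays, 2 with batch 2 without its day 1 array B, and 0 to 1 with 1 array left out. From day 7 to days 10–14, 3 were called higher in batch 2 without that array, and 3 in batch 2 without the day 4 arrays. For day 1 against day 0, 1 was called lower in batch 1 without them. Over the 31 arrays, 21.6% of all probe sets were called higher at days 10–14. This share was 15% with batch 2 alone, 22.3% without the day 4 arrays and 21.5% in batch 2 without them. For day 7 the shares higher were 19.7%, 20.1%, 20.5% and 25.6%, in the same order. Lower at day 7 were 15.3% over the 31 arrays, 15.6% without day 4 and 17.8% in batch 2 without day 1 array B. Counts under settings with no share in the text cannot be set against all probe sets. The cause of the changes in these counts was not tested.

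The settings without day 1 array B in batch 2, without the day 4 arrays, with day 1 as the only early day, and the single-array omissions for the difference between batches were added after seeing the data. The replicate letters did not pair the arrays (correlations of deviations −0.33 to 0.066 over 10 pairs of days), and with a replicate block loxa was 3.22 higher and the counts of calls were unchanged. The difference between batches could not be fitted on good arrays alone. Day 0 of batch 1 is 1 array, which limits each comparison with days 0–1 there.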
